A study of Sus scrofa with 6 samples.

Results

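The genes of fatty acid uptake and beta-oxidation were taken from a list of 41 symbols that follows a fatty acid from the cell surface to acetyl-CoA. A gene of the pig assembly Sscrofa11.1 was matched to 36 of them by symbol and to CD36 and ACACB by position. No gene was matched to SLC22A5, ECI1 and ACOT2, which are named only. Of the 38 matched genes, 37 were among the 19672 genes tested, and ACSL6 was below the filter on expression, with its highest value at 0.0539.

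Long-chain fatty acids enter the muscle fibre with the help of CD36 and fatty acid transport proteins, bind FABP3 in the cytosol and are joined to coenzyme A by acyl-CoA synthetases. The carnitine shuttle, which malonyl-CoA blocks at CPT1, brings the acyl groups into the mitochondrion, where repeated rounds of dehydrogenation, hydration, a second dehydrogenation and thiolysis release acetyl-CoA. Slow, oxidative fibres are known to lean on this route, and fast, glycolytic fibres on glycogen.

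The compared muscles were longissimus thoracis (LT) of the back and semitendinosus (ST) of the hind leg, from 3 Min pigs, a Chinese local breed. All pigs had the wild-type genotype, were of the same age and have no treatment named, and each pig gave 1 LT and 1 ST library, so that there were 6 libraries, 3 per muscle, and replicate numbers are pig numbers. Total RNA of whole muscle was sequenced after removal of rRNA. The study set the 2 muscles side by side because they differ in meat quality, including tenderness, lightness and intramuscular fat. Expression was given in FPKM, the fragments of a transcript scaled by its length and by the mapped fragments of the library, and was summed here over the mRNA transcripts of each gene. FPKM is a value per length, so levels of different genes can be set beside each other. A fold change is on the scale of log2(FPKM + 0.1), ST against LT, and understates the change of genes with low FPKM.

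Over all genes, limma called 114 of 19672 (0.58%) at an adjusted p under 0.05, 81 higher and 33 lower in ST. With the pig as a block in the fit it called 1052 (5.35%), 762 higher and 290 lower. The median log2 fold change of all genes was 0.13, and quantile normalization between libraries moved it to -0.0056 and the calls to 61 (0.31%), 32 higher and 29 lower, without the block and to 252 and 226 with it. Mitochondrial transcripts made up 5.36 to 8.16% of the summed FPKM in LT and 12.1 to 15.4% in ST. The ST library of pig 2 stood apart. The slow-fibre markers, troponins and myosin light chains among them, summed to between 4457 and 6803 FPKM in LT, to 37228 at most in ST, and to 5989 in that library. The fast-fibre markers summed to between 38407 and 51326 FPKM in LT, to 2919 at least in ST, and to 32094 in that library. Without it, 1148 of 19515 genes (5.88%) were called without the block. In bulk muscle, fewer cells of a type and less RNA per cell cannot be told apart.

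The genes of fatty acid uptake and oxidation were mostly higher in ST. The log2 fold change was above 0 for 35 of the 37 genes tested, against 61.3% of all genes, and above 1 for 16, against 5.61%. Its median was 0.93. In 29 genes ST was above LT within each pig, against 32% of all genes, and in 19 the lowest ST value was above the highest LT value, against 16.6%. In 0 genes the highest ST value was below the lowest LT value, against 8.08% of all genes. UCP3 alone was lower in ST within each pig.

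How many of them passed the test depended on whether the pig was in the fit. Without the block, limma called 0 of 37, although 21 had an unadjusted p under 0.05, all higher in ST, against 13% of all genes, and 13 also had a log2 fold change above 1, against 7.1% of all genes beyond 1 in either direction. With the pig as a block, 18 of 37 were called, all higher in ST, against 3.87% of all genes, and 28 had an unadjusted p under 0.05, 27 of them higher, against 17.3% of all genes. With quantile normalization the block gave 10, all higher, against 1.28% of all genes. The block lowered the standard error of 36 of the 37 genes, and the share of all genes with a lower standard error was not computed. Leaving out pig 2 from the blocked fit gave 24 calls, 23 higher and 1 lower, against 6.09% and 2.92% of all genes. Leaving out pig 1 or pig 3 gave 0, where 3 (0.0155%) and 9 (0.0465%) of all genes were called. Each of these fits holds only 2 pigs, so the variance of a gene is taken largely from that of other genes. Without the ST library of pig 2 and without the block, 13 were called, all higher in ST, against 3.91% of all genes, and 12 of them were among the 18. That library had been set apart by its fibre markers. Leaving out any other single library, without the block, called none of the list. Below, "rose" refers to the blocked fit, and the adjusted p of the fit without the block was at least 0.0526 for every gene of the list.

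**Figure D1:**
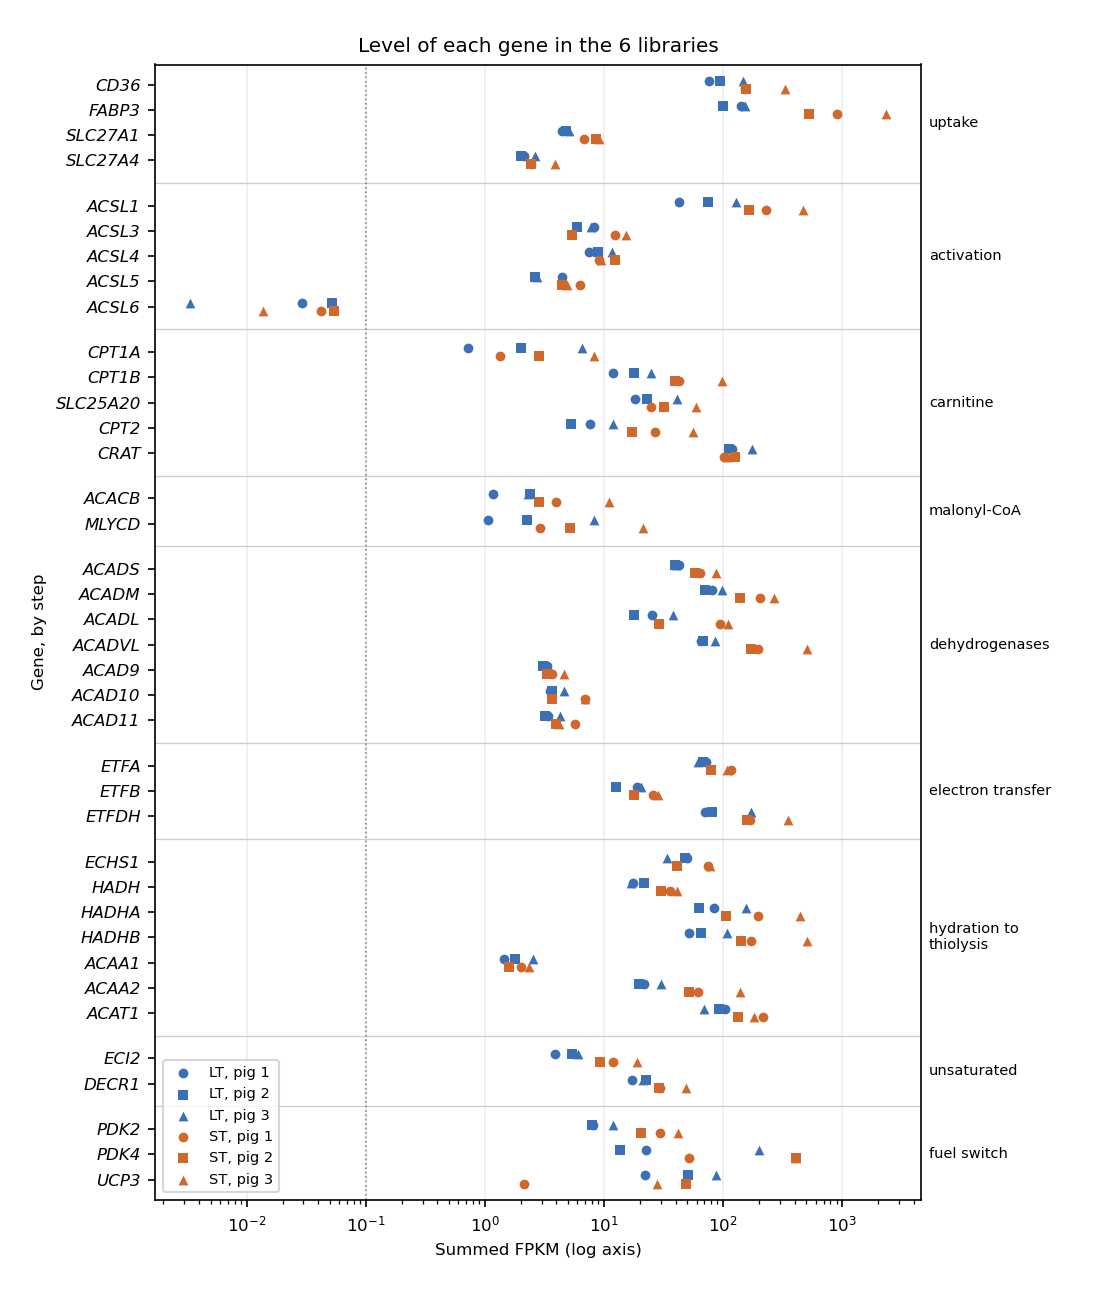
Summed FPKM (x axis, log scale) of the 38 matched genes (y axis, grouped by step) in each library, with LT in blue, ST in orange and 1 marker shape per pig. The dotted line marks the filter of 0.1 FPKM, below which ACSL6 lies, and FABP3 of pig 3 in ST, at 2364, is the highest value.

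At uptake, FABP3, CD36 and SLC27A1 rose in ST and SLC27A4 did not pass the test. FABP3, the fatty acid binding protein of heart and muscle, lies on chromosome 6 (87942790 to 87951610) and had FPKM of 142, 100.1 and 153 in LT of pigs 1, 2 and 3, and of 909, 532 and 2364 in ST. Every ST library was above every LT library, by 6.42-, 5.32- and 15.4-fold within the pigs. The log2 fold change was 3.01, the highest of the list (standard error, SE, 0.50 without and 0.32 with the block), and the adjusted p was 0.0526 without and 0.0162 with the block. FABP3 has a single transcript in the files.

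CD36, the fatty acid translocase of the plasma membrane, had FPKM of 76.9, 93.6 and 146 in LT and of 153, 158 and 334 in ST. The groups did not overlap, though LT of pig 3 was close to ST of pig 1, and ST was 1.99, 1.68 and 2.29 times LT within the pigs. In ST of pig 2, 63.9% of the sum was in transcript ENSSSCT00000035508, which had at most 0.128 FPKM in the other libraries. Without that transcript ST of pig 2 would lie below every LT value, so the lack of overlap and the ratio of pig 2 rest on it. CD36 rose with a log2 fold change of 0.98 (SE 0.18, adjusted p = 0.0362 with and 0.205 without the block). The gene matched to CD36 by position spans chromosome 9 from 99605181 to 99782105, a wider stretch than the RefSeq locus. SLC27A1, the main fatty acid transport protein of muscle, ranged from 4.45 to 5.06 in LT, against 6.77 to 9.07 in ST and rose by 0.75 (adjusted p = 0.048 with the block). SLC27A4 ranged from 2.01 to 2.62 in LT, against 2.43 to 3.87 in ST, and the groups overlapped.

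At activation, ACSL1 alone rose. ACSL1, the leading long-chain acyl-CoA synthetase of muscle, had FPKM of 42.7, 74.9 and 128 in LT and of 229.6, 165 and 474 in ST. The groups did not overlap, and pig 3 was the highest in both muscles. The log2 fold change was 1.81 (SE 0.26 with the block, adjusted p = 0.0261 with and 0.113 without it). ACSL5 ranged from 2.64 to 4.41 in LT, against 4.47 to 6.32 in ST without overlap, with a log2 fold change of 0.69 and an adjusted p of 0.0654 with the block. For ACSL3, tied to lipid droplets, and ACSL4, which prefers arachidonic acid, the groups overlapped, and within-pig differences went both ways.

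In the carnitine shuttle, CPT1B and CPT2 rose. CPT1B, the muscle form of the outer-membrane transferase, had FPKM of 12.0, 17.8 and 25.0 in LT and of 43.0, 39.6 and 98.9 in ST. The groups did not overlap, with ST 3.59-, 2.23- and 3.96-fold above LT within the pigs. Its log2 fold change was 1.66 (SE 0.20, adjusted p = 0.019 with and 0.0895 without the block). The 28-exon transcript ENSSSCT00000062020 held from 36.4 to 57.2% of the CPT1B sum. It begins at 151906, before the 18-exon forms, the first of which begins at 155752. CPT2, which rebuilds the acyl-CoA inside, had FPKM of 7.58, 5.32 and 11.8 in LT and of 26.9, 17.1 and 56.3 in ST. No LT value reached an ST value. CPT2 had a log2 fold change of 1.91 (SE 0.17, adjusted p = 0.0105 with and 0.0861 without the block), and this adjusted p was the smallest of the list with the block.

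The other genes of the shuttle did not pass. SLC25A20, the carnitine-acylcarnitine translocase between the 2 transferases, had FPKM of 18.2, 22.9 and 41.2 in LT and of 24.7, 32.0 and 59.8 in ST. The groups overlapped, yet the within-pig ratios lay close together, at 1.35, 1.40 and 1.45 (log2 fold change 0.48, adjusted p = 0.108 with the block). CPT1A, the liver form of the transferase, varied more between pigs than between muscles, with 0.716, 2.02 and 6.51 in LT and 1.33, 2.87 and 8.32 in ST. Pig 3 was the highest and pig 1 the lowest in both muscles, and the log2 fold change of 0.55 turned to -0.18 without LT of pig 1 and to -0.13 without ST of pig 3. CRAT, which buffers acetyl groups as acetylcarnitine, ranged from 113 to 176 in LT, against 102 to 127 in ST, and its log2 fold change was -0.24 (adjusted p = 0.614 without and 0.524 with the block).

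Malonyl-CoA is made by ACACB at the mitochondrial surface and removed by MLYCD. MLYCD had FPKM of 1.06, 2.26 and 8.19 in LT and of 2.94, 5.19 and 21.3 in ST. The groups overlapped and pig 3 was the highest in both muscles, while the within-pig ratios were 2.78, 2.29 and 2.60. It rose with a log2 fold change of 1.31, and the standard error was 0.85 without and 0.16 with the block (adjusted p = 0.447 and 0.0191). Without the block, its log2 fold change was 0.50 without ST of pig 3, 0.66 without LT of pig 1 and 2.08 without LT of pig 3. The gene matched to ACACB holds a short part of that locus, on chromosome 14 from 41697308 to 41713670, and had FPKM of 1.18, 2.41 and 2.30 in LT and of 3.98, 2.85 and 11.0 in ST. These groups did not overlap, with a log2 fold change of 1.37 and an adjusted p of 0.0779 with the block.

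**Figure D2:**
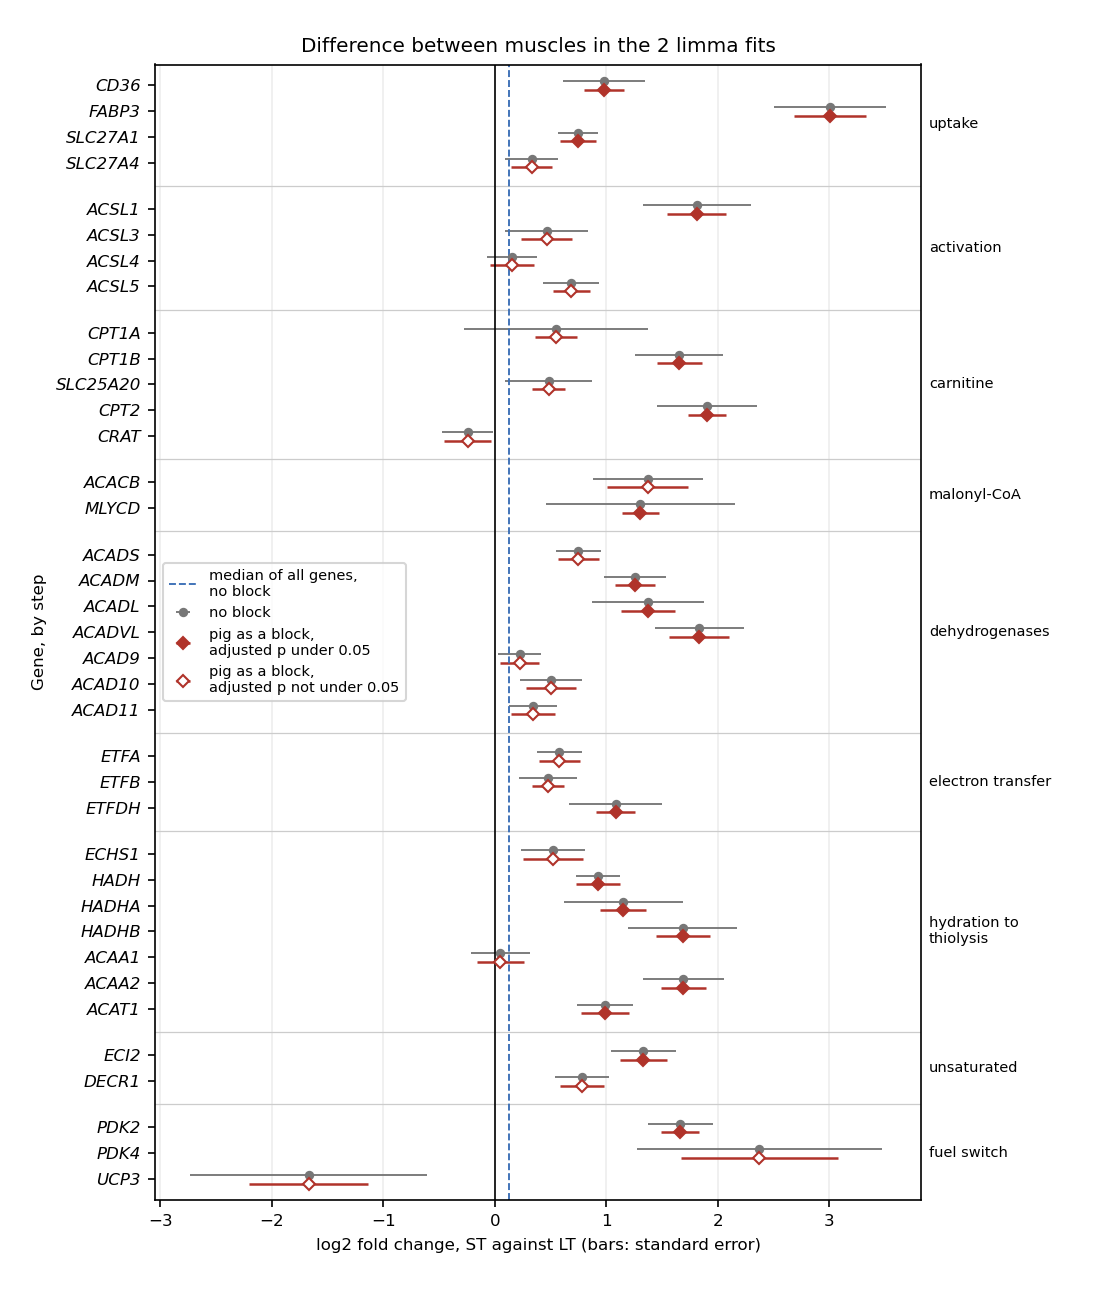
Log2 fold change of ST against LT (x axis) of the 37 genes tested (y axis, grouped by step), with standard errors as bars, in the limma fit without a block (grey) and with the pig as a block (red, filled where the adjusted p was under 0.05). The 18 filled symbols all lie right of 0, and the dashed line is the median of all genes, 0.13.

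Among the acyl-CoA dehydrogenases, which open each round, ACADVL, ACADM and ACADL rose. ACADVL, for very long chains, had FPKM of 65.6, 67.7 and 85.2 in LT and of 196, 171 and 512 in ST. ST was at least 2.53 times LT within each pig and the groups did not overlap (log2 fold change 1.83, SE 0.27, adjusted p = 0.0261 with and 0.0744 without the block). ACADM, for medium chains, had FPKM of 81.6, 70.7 and 98.4 in LT and of 206, 139 and 271 in ST, again without overlap, with a log2 fold change of 1.26 (adjusted p = 0.0261 with the block). ACADL, for long chains, had FPKM of 25.2, 18.0 and 37.8 in LT and of 94.5, 29.1 and 110.0 in ST, and here ST of pig 2 lay inside the LT range (log2 fold change 1.38, adjusted p = 0.0342 with the block).

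ACADS, for short chains, ranged from 39.5 to 42.7 in LT, against 57.9 to 86.9 in ST. Its adjusted p was 0.0634 with the block, and 0.0472 without the block and without ST of pig 2. ACAD9, better known as an assembly factor of respiratory complex I, ranged from 3.09 to 3.39 in LT, against 3.35 to 4.59 in ST. ACAD10 had FPKM of 3.51, 3.69 and 4.65 in LT and of 6.92, 3.635 and 6.996 in ST, and ACAD11 lay between 3.18 and 5.68 in all libraries. None of these 3 passed the test, and their groups overlapped.

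Electrons of these dehydrogenases pass through ETFA and ETFB to ETFDH, which hands them to ubiquinone. ETFDH had FPKM of 70.9, 81.5 and 173 in LT and of 169.8, 160.0 and 352 in ST. LT of pig 3 was above ST of pigs 1 and 2, but within each pig ST was 1.96 to 2.40 times LT. It rose with a log2 fold change of 1.08 (SE 0.17, adjusted p = 0.0296 with and 0.217 without the block). ETFA ranged from 62.0 to 71.7 in LT, against 80.0 to 117 in ST. ETFB ranged from 12.6 to 20.4 in LT, against 17.8 to 28.7 in ST, with within-pig ratios of 1.37, 1.41 and 1.41. Their adjusted p with the block was 0.118 and 0.107.

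From hydration to thiolysis, HADHA, HADHB, HADH, ACAA2 and ACAT1 rose, and ECHS1 and ACAA1 did not pass. HADHA and HADHB encode the 2 chains of the trifunctional protein and lie head to head on opposite strands of chromosome 3, where their spans share 222 bases. HADHB had FPKM of 52.1, 65.0 and 109 in LT and of 173, 141 and 507 in ST, without overlap (log2 fold change 1.69, SE 0.24, adjusted p = 0.0251 with the block). HADHA had FPKM of 84.6, 62.9 and 157 in LT and of 196, 105 and 448 in ST, and ST of pig 2 fell within the LT range (log2 fold change 1.16, SE 0.21, adjusted p = 0.0343 with the block). Without the block these adjusted p were 0.128 and 0.294.

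ACAA2, the mitochondrial thiolase, had FPKM of 21.6, 19.8 and 30.4 in LT and of 61.9, 52.0 and 138 in ST. The lowest ST value was above the highest LT value, and the log2 fold change was 1.69 (SE 0.20, adjusted p = 0.0187 with and 0.0741 without the block). HADH, the short-chain hydroxyacyl-CoA dehydrogenase, had FPKM of 17.5, 21.9 and 16.8 in LT and of 35.8, 30.1 and 41.4 in ST. The groups did not overlap. HADH was the gene of the list whose standard error was not lower with the block, at 0.19 without and 0.20 with it, and it rose by 0.93 (adjusted p = 0.0717 and 0.0494). ACAT1, which also works in ketone body use, rose by 0.99 with values from 69.3 to 104 in LT, against 133 to 217 in ST, and its adjusted p of 0.04996 with the block lay just under the threshold.

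ECHS1, the short-chain hydratase, had FPKM of 49.8, 48.1 and 34.0 in LT and of 75.3, 41.3 and 77.8 in ST. It was higher in ST in pigs 1 and 3 and lower in pig 2, and its log2 fold change was 0.52 (adjusted p = 0.284 with the block). ACAA1, the peroxisomal thiolase, stayed between 1.45 and 2.56 in all libraries, and its log2 fold change of 0.051 turned to -0.15 with quantile normalization and to -0.085 with median-ratio size factors.

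Of the genes for unsaturated chains, ECI2 rose. ECI2, an enoyl-CoA isomerase, had FPKM of 3.90, 5.38 and 6.08 in LT and of 12.0, 9.33 and 18.9 in ST, without overlap (log2 fold change 1.33, adjusted p = 0.0291 with and 0.075 without the block). DECR1, the mitochondrial dienoyl-CoA reductase, ranged from 17.1 to 22.7 in LT, against 29.3 to 49.0 in ST. Its log2 fold change was 0.78, with an adjusted p of 0.0686 with the block.

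PDK2 and PDK4 encode kinases that shut pyruvate dehydrogenase and so favour fat over glucose as a fuel. PDK2 had FPKM of 8.06, 7.95 and 12.0 in LT and of 29.6, 20.5 and 41.7 in ST. The groups were apart and the within-pig ratios were 3.67, 2.57 and 3.46. PDK2 rose with a log2 fold change of 1.67 (SE 0.17, adjusted p = 0.0139 with and 0.058 without the block).

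Of the 37 genes tested, PDK4 had the widest spread in LT, where its highest value was 14.5 times its lowest. It had FPKM of 22.6, 13.7 and 199 in LT and of 52.0, 407 and 413 in ST, so that LT of pig 3 was above ST of pig 1. ST was above LT in every pig, 2.30-, 29.6- and 2.07-fold, and the log2 fold change of 2.38 did not pass the test (SE 1.10 without and 0.70 with the block, adjusted p = 0.294 and 0.1). UCP3, an uncoupling protein of the inner membrane found in muscle, had FPKM of 22.3, 51.0 and 87.6 in LT and of 2.13, 49.1 and 28.2 in ST. The ST to LT ratio was 0.0958, 0.963 and 0.321, so that ST was lower in each pig but hardly so in pig 2. Its log2 fold change was -1.67 (SE 1.06 without and 0.54 with the block, adjusted p = 0.436 and 0.12). With pig 2 left out of the blocked fit, which then held only 2 pigs, it was -2.48 with an adjusted p of 0.00623. Without the block, leaving out ST of pig 1 moved it to -0.32 (adjusted p = 0.837) and leaving out ST of pig 2 to -2.55 (adjusted p = 0.186).

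**Figure D3:**
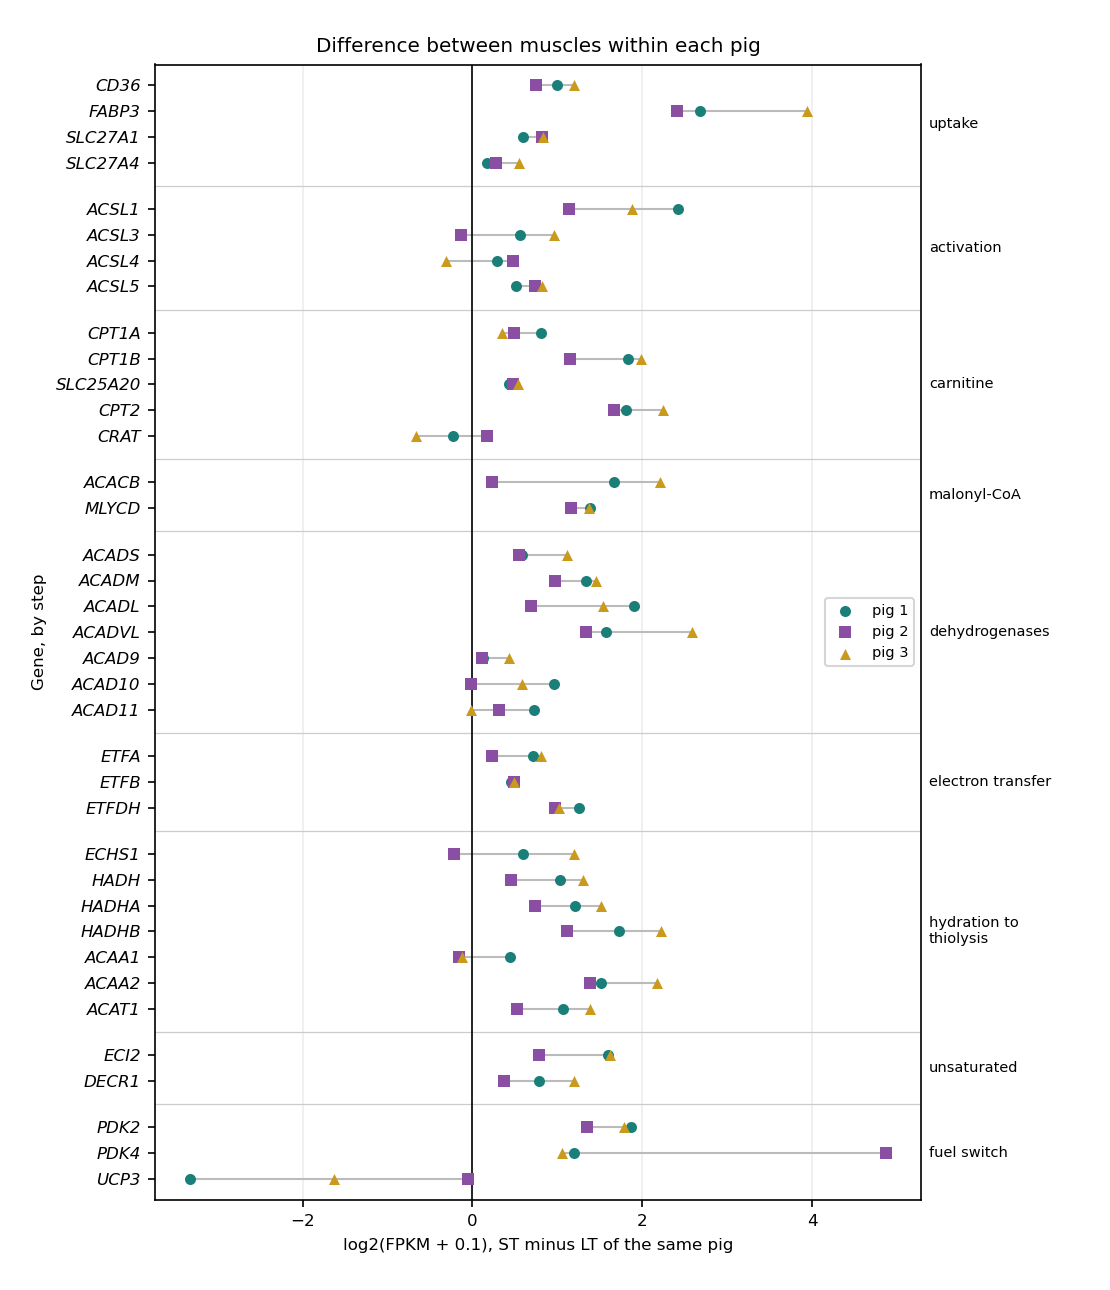
Difference in log2(FPKM + 0.1) between ST and LT of the same pig (x axis) for the 37 genes tested (y axis), with 1 symbol per pig and a grey line over the range. The symbols of MLYCD, SLC25A20 and ETFB lie close together and those of PDK4 and UCP3 far apart. In 26 genes pig 2 has the smallest value, a count whose share over all genes was not computed.

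The spread between pigs had an order. LT of pig 3 was the highest LT library for 28 of the 37 genes, against 46.7% of all genes, and ST of pig 3 the highest ST library for 30, against 32.4%. ST of pig 2 was the lowest ST library for 27, against 46.8% of all genes, and it lay inside the LT range for 15. The highest value was more than 3 times the lowest for 5 genes in LT and for 10 in ST. For these spreads, and for the count inside the LT range, the share of all genes was not computed. CPT1A was, of these 37, the gene with the widest spread after PDK4 in LT, where its highest value was 9.08 times its lowest. Given as sums, the 37 genes held from 1239.5 to 2002 FPKM in LT and from 2801 to 7011 in ST, with ST of pig 2 at the lower end. Without ST of pig 3 the median log2 fold change of the 37 genes was 0.61, and without ST of pig 2 it was 1.05. For 19 of the 37 genes, leaving out 1 library without the block moved the log2 fold change by over 1.5 times or turned its sign, and for 12 of them ST of pig 3 was such a library. Of the 18 genes that rose, 5 were among the 19. Without ST of pig 3, CD36 went from 0.98 to 0.61, MLYCD from 1.31 to 0.50, ETFDH from 1.08 to 0.72, HADHA from 1.16 to 0.61 and HADHB from 1.69 to 1.12. SLC25A20 went from 0.48 to 0.12.

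For 6 pairs of genes from the same or opposing steps, the ratio of FPKM + 0.1 within a library was compared, which hardly depends on the scaling of libraries. The ratio of CD36 to FABP3 was 0.544, 0.936 and 0.953 in LT, against 0.168, 0.296 and 0.141 in ST. It was lower in ST in each pig and the groups did not overlap, with a difference of -2.03 on the log2 scale (2-sided exact permutation test, p = 0.1, the smallest that 3 against 3 libraries allow, adjusted p = 0.6 over the 6 ratios). HADHA to HADHB was 1.62, 0.968 and 1.44 in LT, against 1.13, 0.747 and 0.884 in ST, lower in ST in each pig but with overlap (exact p = 0.2). CPT1A to CPT1B, the liver form against the muscle form, was from 0.0676 to 0.263 in LT, against 0.0332 to 0.0851 in ST and was also lower in ST in each pig (exact p = 0.3). The ratios of ETFA to ETFB, PDK4 to PDK2 and MLYCD to ACACB differed by 0.10, 0.71 and -0.066, with exact p of 0.7, 0.7 and 1, and each of these changed sign when 1 library was left out.

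The files give FPKM per transcript, and 115 transcripts of the matched genes were tested among 52102. None was called by limma with or without the block, against 0.146% and 0.00384% of all transcripts, while 32 had an unadjusted p under 0.05 without the block, against 9.69%, and 45 with it, against 10.3%. The transcript with the highest FPKM was the same in all libraries for 22 of the 37 genes and differed between libraries for 15. Of those 22 genes, 7 have only 1 transcript and could not differ.

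For some genes the leading transcript went with the pig. UCP3 has 2 transcripts over the same span, of 1999 and 1987 bases. The 7-exon transcript ENSSSCT00000054560 had FPKM of 22.3 and 87.6 in LT and of 2.13 and 28.2 in ST of pigs 1 and 3, and of 0.342 and 0.246 in pig 2. The 8-exon ENSSSCT00000016186 had 50.6 and 48.8 in LT and ST of pig 2 and was listed at 0 in the other libraries. In each pig the FPKM of both muscles was assigned almost wholly to the same transcript. In HADHB, ENSSSCT00000085100 had 39.1 FPKM in LT and 288 in ST of pig 3 and at most 0.824 in the other pigs. It held 56.9% of the gene in ST of pig 3. The other main HADHB transcripts, ENSSSCT00000085697 and ENSSSCT00000009375, lay between 22.5 and 35.0 in LT and between 68.7 and 111 in ST in all pigs, without overlap between the muscles.

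For other genes it went with single libraries. In ETFB, ENSSSCT00000003588 held 99.2 and 99.4% in LT of pigs 1 and 3, with 18.8 and 20.3 FPKM, and ENSSSCT00000087526 held at least 95.3% in the other 4 libraries, with 12.2 to 27.9. In CD36, the 15-exon ENSSSCT00000016780 led with 56.0 to 270.1 FPKM in 5 libraries and had 8.88 in ST of pig 2, where the 12-exon ENSSSCT00000035508 had 100.7 and at most 0.128 elsewhere. In ACSL1, ENSSSCT00000053587 held 87.4% in LT of pig 3 and ENSSSCT00000069724 between 72.0 and 91.3% in the other libraries. How the assembly shared fragments among forms that overlap was not tested.

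**Figure D4:**
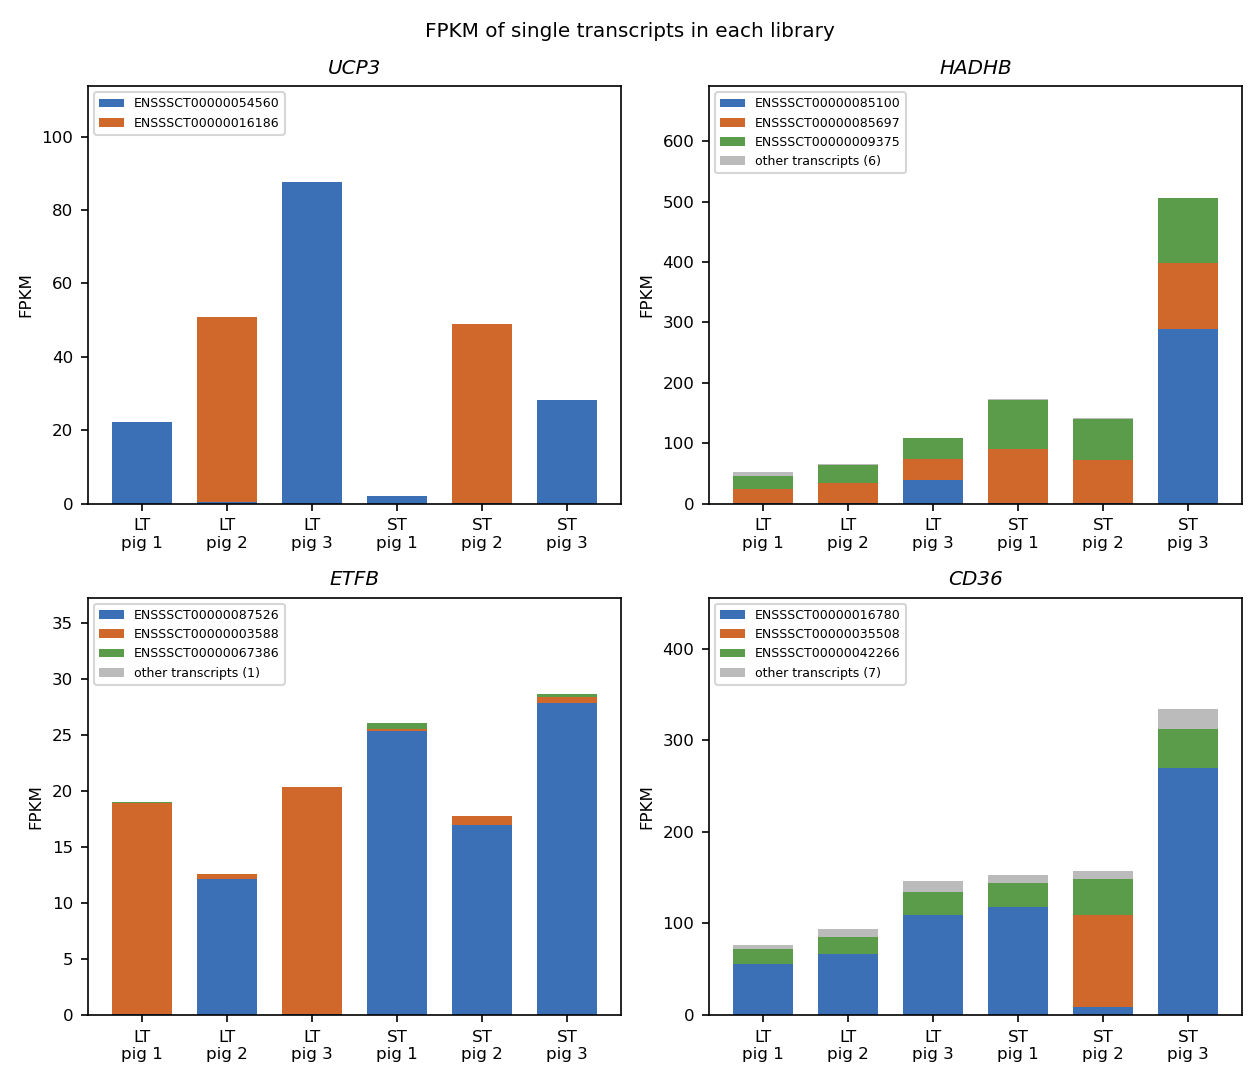
FPKM of single transcripts (y axis, stacked from 0) in each library (x axis) for UCP3, HADHB, ETFB and CD36, with the 3 highest transcripts coloured and all others in grey. The leading UCP3 transcript differs between pig 2 and the other pigs, and the leading CD36 transcript is another one in ST of pig 2.

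Unannotated transcripts on the opposite strand overlapped 25 of the tested genes, 51 transcripts in all. The files class 28 of them as mRNAs, 19 as intronic and 4 as antisense lncRNAs, and 19 had the exon number of a transcript of the gene itself. Their summed FPKM was low against that of the gene, with a median of 4.23% over the 25 genes and a mean between 1 and 10% for 17. For some genes the share varied little. For ACAT1 it was 2.29 to 2.54% in the 6 libraries, for ACSL1 2.61 to 3.72% and for ETFA 4.02 to 5.02%. For HADH it was 12.0 to 18.1%, in a single 8-exon transcript with 2.65 to 3.03 FPKM in LT and 3.62 to 5.83 in ST. In 22 of 25 genes the difference between the muscles had the same sign on both strands. No such share was computed for other genes, and 61.3% of all genes had a log2 fold change above 0. limma called 0 of the 51 with or without the block, and 10 without and 12 with the block had an unadjusted p under 0.05, against the 9.69% and 10.3% of all transcripts given above. The libraries were made with a directional kit, and the sources used here do not give how strand was used in the assembly, so reads of a gene and of the transcript opposite to it may not be fully told apart.

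**Figure D5:**
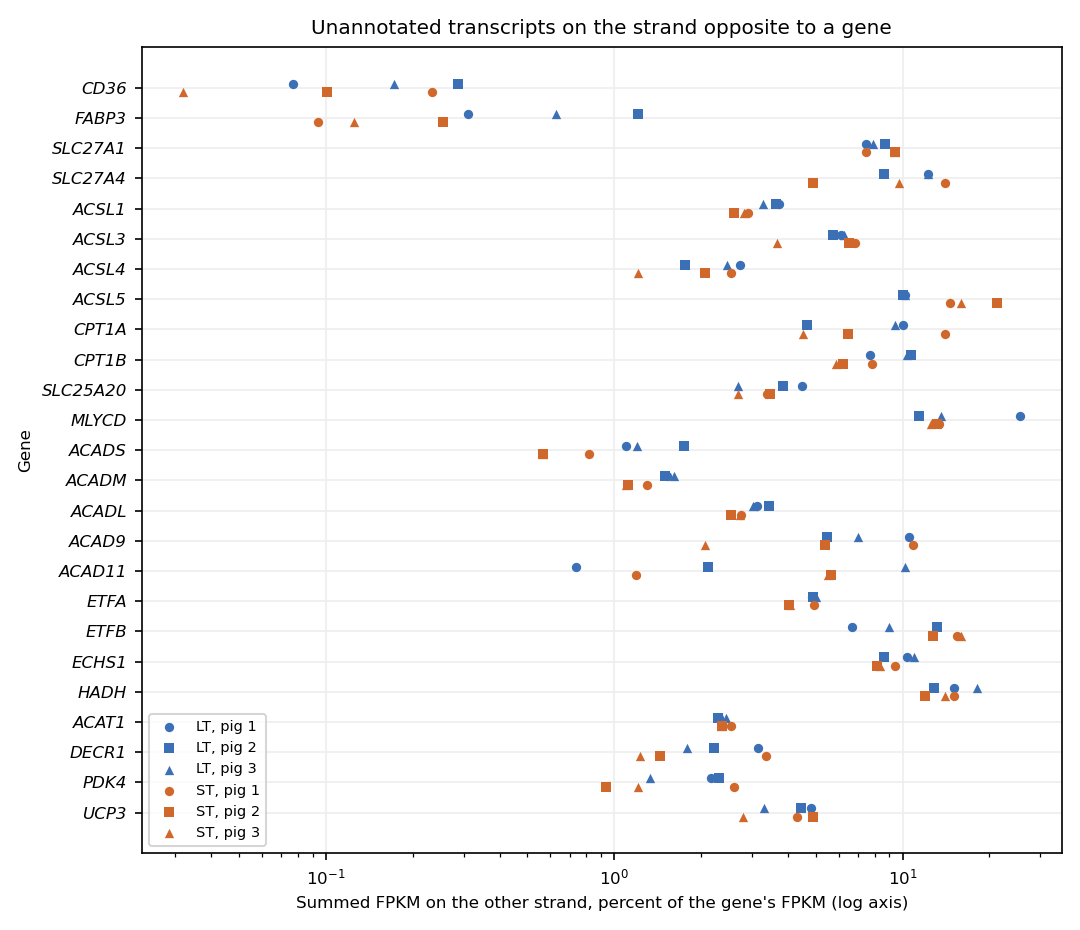
Summed FPKM of unannotated transcripts on the other strand as a percentage of the FPKM of the gene (x axis, log scale) for 25 genes (y axis) in the 6 libraries, LT in blue and ST in orange. The values of ACAT1 lie between 2.29 and 2.54% in all libraries, while those of CD36 and FABP3 are mostly under 1%.

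Of 65 other genes of fatty acid handling, 58 were tested, and 2 rose without the block, against 0.412% of all genes called higher. LPL, the lipase that frees fatty acids from blood lipoproteins, had FPKM of 62.1, 74.0 and 62.6 in LT and of 169, 173 and 186 in ST. The 3 ST values lay close together and far above LT (log2 fold change 1.41, adjusted p = 0.0259 without and 0.0188 with the block). ACSM3, a medium-chain acyl-CoA synthetase, was between 0.0935 and 0.127 in LT and at 2.60, 0.635 and 1.21 in ST (log2 fold change 2.75, adjusted p = 0.0492 without and 0.0239 with the block). With the block, 17 of the 58 rose and 2 fell, against 3.87% and 1.47% of all genes. The 2 that fell, named here after their values were seen, were DECR2 and PDK3, with log2 fold changes of -0.95 and -1.40. By group, 3 of 14 genes of peroxisomal oxidation rose and 1 fell, 2 of 10 of uptake and binding and 4 of 11 of activation and thioester release rose, 4 of 17 other mitochondrial genes rose and 1 fell, and 4 of 6 genes of lipolysis rose. The median log2 fold change was 0.35 for peroxisomal oxidation, 0.67 for the other mitochondrial genes and 1.08 for lipolysis.

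Markers of other cell types and of mitochondria were set beside these values. The endothelial markers, 5 of 6 matched, summed to between 53.3 and 76.3 FPKM in LT and between 118 and 172 in ST, and PECAM1 and CDH5 of them rose without the block (log2 fold change 1.39 and 1.22, adjusted p = 0.0438 and 0.0408), against 0.412% of all genes. With the block KDR rose too (adjusted p = 0.0324), which made 3 of 5, against 3.87% of all genes. CD36 and LPL are also made outside muscle fibres. The adipocyte markers, 6 of 7 matched, summed to between 68.3 and 198 FPKM in LT and between 59.5 and 151 in ST. None of the 6 had a log2 fold change above 0, and none was called with or without the block. Of the slow-fibre markers 7 of 10 and of the fast-fibre markers 8 of 10 were matched, with median log2 fold changes of 1.73 and -2.36. With the block 3 slow-fibre markers rose, against 3.87% of all genes, and 0 fast-fibre markers were called. Without the block, 0 markers of either list were called on all libraries. When ST of pig 2 was also left out, the 7 slow-fibre markers were called higher, against 3.91% of all genes. Of the fast-fibre markers 7 of 8 were then called lower, against 1.97%. That library had been set apart by these same markers, so these counts are no separate evidence. MYH7, MYH2, MYH1, MYH4 and MB were not matched by name. Looked at after the other values were seen, the gene named MYH6, whose span holds MYH7, the slow myosin heavy chain, had FPKM of 614, 529.6 and 696 in LT and of 3582, 1014 and 4682 in ST (log2 fold change 2.08, adjusted p = 0.0392 with and 0.109 without the block). An unnamed gene, ENSSSCG00000029441, whose span holds the fast chains MYH4, MYH1 and MYH2, had 6368, 7844 and 5981 in LT and 1443, 5873 and 437 in ST (log2 fold change -2.11, adjusted p = 0.0968 with and 0.224 without the block). The fibroblast markers, 6 of 6 matched, summed to between 632 and 1346 FPKM in LT and between 665 and 1239 in ST, the leukocyte markers, 5 of 5, to between 14.6 and 17.6 and between 14.2 and 31.2, and the erythroid markers, 6 of 6, to between 677 and 1055 and between 576 and 1018, and none of these was called with or without the block. The mitochondrial reference genes, 8 of 9 matched, had a median log2 fold change of 0.83, against 0.93 for the genes of fatty acid uptake and oxidation, and summed to between 519 and 693 FPKM in LT and between 908 and 1283 in ST. The difference between these medians was not tested. The log2 fold changes of the 8 mitochondrial reference genes went from 0.12 to 3.57, and 1 was above 1. Without the block 0 of them were called, and with it 1 of 8 rose, against 3.87% of all genes. The general muscle genes, 6 of 6 matched, were at 311 FPKM or more in every library and had a median log2 fold change of 0.18. Those of ACTA1, TTN and NEB were between -0.039 and 0.039, and those of CKM, DES and MYOT were 0.32, 0.70 and 1.11. MYOT rose with the block (adjusted p = 0.0371), and was also called higher without the block and without ST of pig 2 (adjusted p = 0.0213). The part of fibre type, mitochondrial content and endothelial cells in the values of the list was not tested.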

How the data were processed

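RNA-seq of LT and ST of 3 Min pigs gave 6 libraries. The authors aligned the reads to the pig genome, ran a reference-based StringTie assembly on them, and their deposited values are FPKM for each transcript, where the read depth behind a single value is unknown. Replicates were not pooled, with 1 table of values per library. FPKM was summed here over the mRNA transcripts of each gene, genes above 0.1 FPKM in at least 1 library were kept, and log2(FPKM + 0.1) was compared between the muscles with limma 3.58.1 in R 4.3.3 (variance trend, Benjamini-Hochberg adjustment over all genes tested, threshold 0.05). Transcripts were tested in the same way. Ratios were compared with 2-sided exact permutation tests in scipy 1.17.1.

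Groups and replicate numbers came from the sample labels. The replicate numbers paired the samples, since per the study both muscles came from the same pigs. Residuals from the muscle means correlated with r of 0.26 to 0.29 for the same pig. Those of different pigs had r of -0.18 to -0.11, where the negative sign follows from centring on the muscle means and is no separate evidence. The study's methods name no model or block. The fit without the block was taken as the first one and the pig as a block as an alternative. Without the block, p-values measure the spread between these 3 pigs within each muscle. With the block, they measure the spread of the within-pig difference between the muscles.

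On simulated data, the fit without the block recovered 21 of 100 genes changed by 1 on the log2 scale and 72 of 100 changed by 2, with 9 other calls among 19313 genes. The simulated libraries were independent, without a pig effect, and genes with low levels were not among those changed. The blocked fit was not simulated, so these rates do not describe it. Alternatives covered the pseudocount, the filter, the variance trend, scaling, the block, the call rule, the transcripts summed and each library left out. The block with 1 pig left out was added after seeing the data. Every listed gene with a row was named, and of the other genes of the pathway those called without the block, up to 8. The list of genes, the marker lists and the tests were chosen with earlier results of these data known.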

Additional observations from a re-analysis of the deposited data

How the results depend on the processing

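Without the block, limma called 0 of the 37 genes of fatty acid uptake and oxidation and 114 of all genes. The replicate block gave 18, all higher in ST (1052 of all genes), and the block with quantile normalization 10, all higher. Values above 1 FPKM in at least 1 library gave 2 (181), FPKM rescaled to the nuclear total 3 (328), and the study's thresholds of unadjusted p and fold 13 (1396), all higher. All genes called came to 9 with no filter, 29 with no variance trend, 61 with quantile normalization and 48 with median-ratio size factors, with 0 of the 37 under each. Leaving out 1 library gave 0 to 13 of the 37 and 12 to 1148 of all genes, both highest without ST of pig 2. In the blocked fit, leaving out 1 pig gave 0 to 24 of the 37 (up to 23 higher and 1 lower) and 3 to 1747 of all genes, highest without pig 2. Leaving out 1 library gave 0 to 1 transcripts called.

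Of 740 log2 fold changes under alternatives, 661 kept direction and side of the threshold, 70 passed it and 9 changed sign, in 3 genes. ACAA1 went to -0.15 with quantile normalization, with and without the block, -0.085 with median-ratio size factors, -0.13 without LT of pig 1, -0.073 without ST of pig 3 and -0.14 with the block without pig 1. CPT1A went to -0.18 without LT of pig 1 and -0.13 without ST of pig 3, and ACSL4 to -0.0085 with the block without pig 2. On leaving out 1 library, the log2 fold change ranged from -0.13 to 0.26 for ACAA1 and from -0.18 to 1.33 for CPT1A, and the log2 difference of the ratio ranged from -2.35 to -1.81 for CD36 to FABP3, -1.57 to -0.59 for CPT1A to CPT1B, -0.75 to -0.38 for HADHA to HADHB, -0.091 to 0.33 for ETFA to ETFB (-0.091 without LT of pig 3), -0.040 to 1.71 for PDK4 to PDK2 (-0.040 without ST of pig 2) and -0.40 to 0.57 for MLYCD to ACACB (0.57 without LT of pig 3, 0.37 without ST of pig 1). Paired within pigs, an exact sign-flip test of a ratio cannot go below p = 0.25, the value for CD36 to FABP3. The cause of these shifts was not tested.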
